A study of Homo sapiens with 6 samples.

Results

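The messenger RNA levels of 46 genes were examined: the transcription factor gene MYC and 45 genes for nucleolar ribosome biogenesis factors. The members were taken by gene symbol from a list of names that was drawn up with earlier results of these data known, by a rule that names no measured value, and all 46 were found among the 17631 genes of the deposited tables. Each of the 46 also passed the limit on low values that left 12582 genes for testing (at least 1 TPM in 3 or more libraries; TPM, the unit of the tables, is a gene's share of a library per unit of transcript length). The cells were MDA-MB-231, an established line of human triple-negative breast cancer, grown in culture and exposed for 24 h either to vehicle or to 30 µM PDBAG1, with 3 libraries per group. PDBAG1 is a peptide derived from the enzyme GPD1 that was joined to a cell-penetrating sequence, and both groups shared the cell line, the medium and the exposure time. A single line was used, and the sources used here do not say whether the 3 libraries of a group came from separate cultures, so the p values measure the spread between these libraries, which may be technical.

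Ribosomes are built in the nucleolus, where RNA polymerase I transcribes a long precursor rRNA. Small nucleolar ribonucleoproteins (snoRNPs) of the box C/D and box H/ACA classes modify that precursor, and large sets of assembly factors then fold, cleave and export the small and the large subunit. MYC is known as an activator of many of these genes, which it binds together with its partner MAX at the DNA motif called the E-box, and nucleolar size and MYC activity are commonly raised in breast tumours.

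The labels name breast cancer tissue as well as the cell line, and the transcripts of the defining genes were compared with the line. VIM and CD44, which are high in mesenchymal breast lines, stood at 4174 to 4346 and 313 to 331 TPM with vehicle and at 5758 to 5942 and 463 to 499 TPM with PDBAG1. ESR1 reached at most 3.38 TPM, PGR at most 0.06 and EPCAM at most 5.78, and ERBB2 lay between 23.6 and 25.4 TPM in all 6 libraries. Of the markers of other cell types, PTPRC (blood cells) was at 0.86 to 1.41 TPM, and VWF (endothelium) and COL3A1 (fibroblasts) were at or under 0.09 TPM. CD14 (monocytes) was at 6.72 to 7.7 TPM with vehicle and at 6.01 to 6.52 TPM with PDBAG1. The summed level of the 5 markers found was 11.6 to 13 TPM with vehicle and 15.1 to 16.5 TPM with PDBAG1. PECAM1 (endothelium and platelets), singled out after its values were seen, was higher with PDBAG1 (3.78 to 4.08 against 7.87 to 9.15 TPM), and the part of these markers in the results was not tested. In bulk RNA, fewer cells of a type and less RNA per cell cannot be told apart. At a TPM of 1 or more, each library detected 12392 to 12611 genes, no library was a copy of another, and the standard deviation of log2 differences was 0.142 to 0.175 within a group and 0.278 to 0.296 between groups. Depth cannot be read from TPM and is unknown, so the precision comes from the spread of 3 libraries alone.

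The ribosome biogenesis genes were lower with PDBAG1 in every role group, by modest amounts, while MYC itself was not called. Of the 46 members, 37 were called lower (limma on log2(TPM + 1), Benjamini-Hochberg adjusted p under 0.05 over all genes tested), which is 80.4% of them. Over all 12582 genes tested, 15.9% were called lower and 21.7% higher. Most members are well expressed, and among the 8027 genes with a mean TPM at least that of the lowest member (POLR1A, 12.9 TPM) 21.7% were called lower. No member was called higher by limma, also at an unadjusted p under 0.05 (0 of 46), where 39 were lower. All 46 members had a negative log2 fold change, against 44.1% of all genes tested, and the median was -0.30, against 0.03 over all genes tested. On the TPM scale the members stood at 63.9% (NOP16) to 98.8% (NAT10) of the vehicle mean, with a median of 80.6%. In 40 members every PDBAG1 library lay below every vehicle library, a pattern found in 20.2% of all genes tested, and 3 of the 40 (MYC, POLR1A and RRN3) were not called. The changes were small: with a limit of 1.5-fold added, NOP16 alone was called, beside 0.477% of all genes tested. Quantile normalisation raised the share of lower calls among all calls from 42.2% to 53.3% and left the all-gene median at -0.02, and 40 members were then called lower and none higher (0 of 46), beside 21.8% of all genes called lower. With trends in transcript length and GC content removed from each library, a step chosen after the data were seen, 42 members and 25.3% of all genes tested were called lower.

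**Figure D1:**
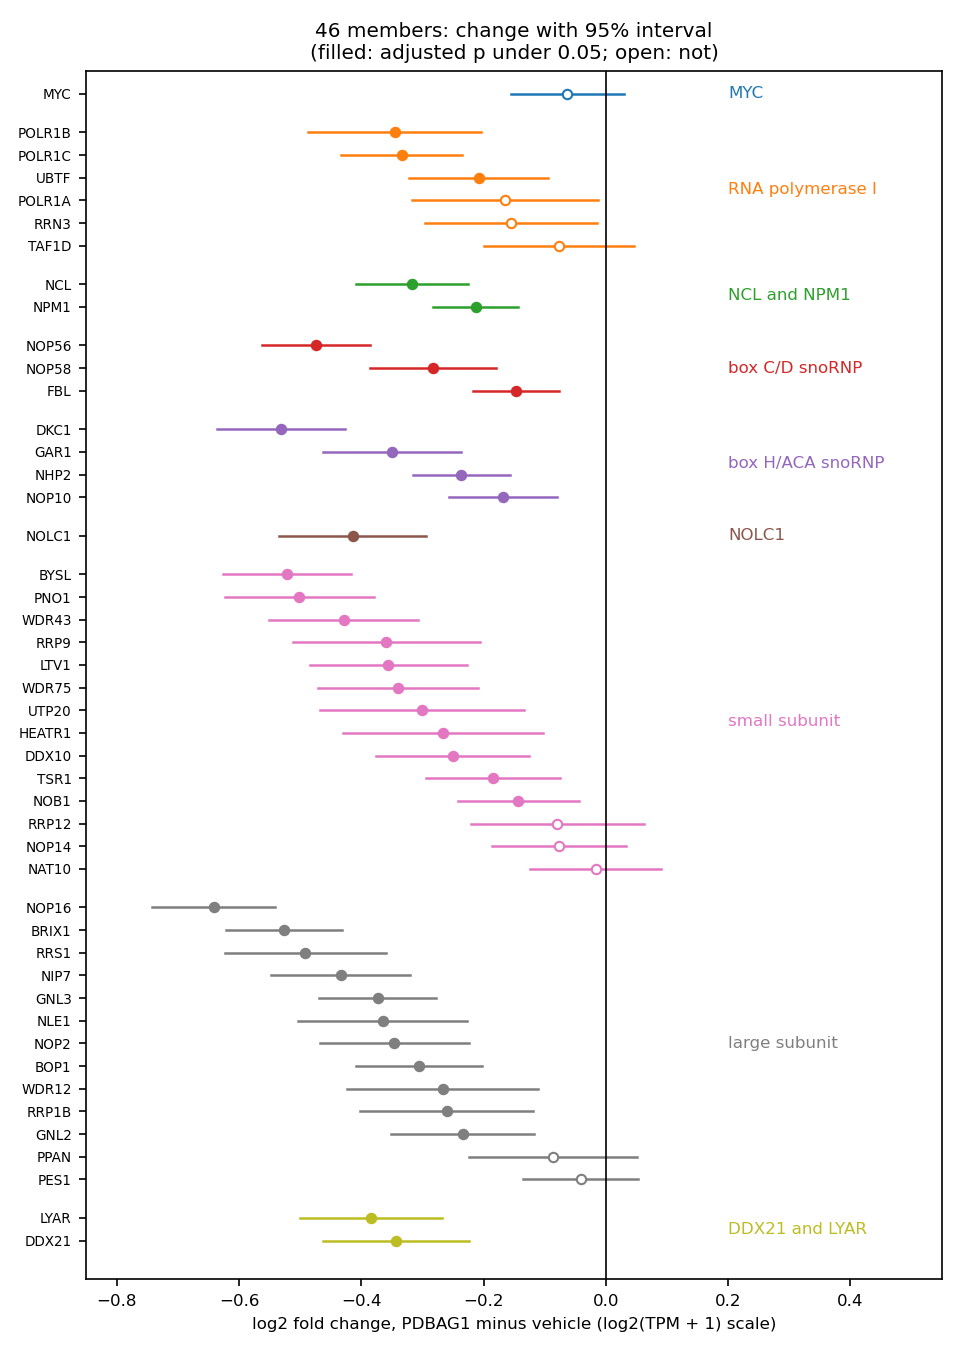
Log2 fold change (PDBAG1 minus vehicle, on the log2(TPM + 1) scale) of each of the 46 members with its 95% interval from limma, grouped and coloured by role. Filled points were called (adjusted p under 0.05) and open points were not; all 46 points lie left of 0, from -0.64 for NOP16 to -0.02 for NAT10.

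Summed over the members, the libraries held 8322, 8179 and 8255 TPM with vehicle and 6768, 6807 and 7098 TPM with PDBAG1. The groups did not overlap, and their means were 8252 ± 71.2 and 6891 ± 180 (SD, n = 3). NPM1 made up the largest share of that sum, and without it the means were 5005 ± 69.6 and 4089 ± 86.8 TPM. Among the vehicle libraries, 33 of the 46 members were highest in replicate 1 and 32 were lowest in replicate 2. Among the PDBAG1 libraries, 34 were highest in replicate 3. These counts were not made over all genes. Leaving out any 1 library left 36 or 37 members called lower, beside 11.9% to 16.5% of all genes tested. Factors of median-of-ratios scaling, taken over the genes at large, had the same extremes. With vehicle they were highest in replicate 1 (1.02) and lowest in replicate 2 (0.969), and with PDBAG1 highest in replicate 3 (1.04). The order of the libraries among the members was therefore not particular to them. Under that scaling 40 members and 20.8% of all genes tested were called lower.

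The E-box is the short palindrome CACGTG, which reads the same on both strands. It was sought in the RefSeq promoter windows (GRCh38.p14) that run from 250 bases before to 50 bases after a gene's start. A window was found for 39 of the 46 members. MYC, NOP58, NOLC1, RRP12, BOP1, RRS1 and RRP1B had no entry. The motif was present for 18 of the 39 members (46.2%) and for 1293 of the 10296 tested genes with a window (12.6%). The members differed most from all genes just after the start: 12 members (30.8%) held an E-box within the 50 bases after it, against 1.52% of all genes tested, whereas before the start the shares were 15.4% and 11.5%. Genes with several windows made up 23.1% of the members and 29.3% of all genes tested. The sequences around some of these motifs are shown because the motif is the one that MYC and MAX bind, each 5′ to 3′ on the strand of its gene with the E-box in capitals. The first 8 belong to members called lower, and the last 2, NAT10 and PES1, to members that were not called.
FBL: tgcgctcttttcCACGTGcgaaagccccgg
GAR1: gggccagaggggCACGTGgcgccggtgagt
PNO1: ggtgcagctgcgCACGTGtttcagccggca
BYSL: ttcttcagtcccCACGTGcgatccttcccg
NOP2: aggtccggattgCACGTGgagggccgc
GNL3: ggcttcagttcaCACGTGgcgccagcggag
DDX21: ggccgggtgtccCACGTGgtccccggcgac
LYAR: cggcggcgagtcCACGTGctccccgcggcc
NAT10: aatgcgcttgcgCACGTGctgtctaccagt
PES1: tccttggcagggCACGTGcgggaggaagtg
These stretches lie at chr19:39846356-39846385 (FBL, minus strand), chr4:109815781-109815810 (GAR1, plus), chr2:68157885-68157914 (PNO1, plus), chr6:41921515-41921544 (BYSL, plus), chr12:6568242-6568268 (NOP2, minus), chr3:52686026-52686055 (GNL3, plus), chr10:68956604-68956633 (DDX21, plus), chr4:4290068-4290097 (LYAR, minus), chr11:34105602-34105631 (NAT10, plus) and chr22:30591880-30591909 (PES1, minus). The motif began 7 bases after the start for FBL and GNL3, 10 for PNO1, 14 for PES1, 29 for BYSL, 32 for GAR1 and 36 for NOP2, and its first base lay at -15 for NAT10, -31 for DDX21 and -64 for LYAR. NOP10 held the motif at both -170 and -11. A match is a description of the letters only, and binding was not measured.

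Members with and without the motif were both mostly called lower. The 18 members with an E-box had a median log2 fold change of -0.35 and 15 of them were called lower, while the 21 without one had a median of -0.27 and 17 were called lower. Over all genes tested the medians were 0.02 with the motif and 0.03 without it, and 18.9% and 15.8% were called lower. No test of these differences was made.

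RNA polymerase I transcribes the precursor rRNA, and 3 of its 6 members were called lower, with a median log2 fold change of -0.19. POLR1B, one of the large catalytic subunits, measured 17.1, 16.4 and 16.4 TPM with vehicle and 12.9, 12.6 and 13.2 TPM with PDBAG1. The groups stood well apart, with a log2 fold change of -0.35 (SE 0.07, limma adjusted p = 0.00109). POLR1C, a subunit shared with RNA polymerase III, was at 62.0, 61.7 and 61.8 TPM with vehicle and at 49.4, 49.0 and 48.2 TPM with PDBAG1. Its libraries were the tightest of the group, and its log2 fold change was -0.33 (SE 0.05, limma adjusted p = 8.46e-05). UBTF, which binds the rDNA and keeps it open, had 60.2, 58.7 and 61.7 TPM with vehicle and 51.01, 49.8 and 55.3 TPM with PDBAG1. PDBAG1 replicate 3 lay nearest to the vehicle libraries, and the log2 fold change was -0.21 (SE 0.05, limma adjusted p = 0.00716), or -0.33 with length and GC trends removed.

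The other 3 polymerase I members were not called. POLR1A, the largest subunit, was measured at 14.4, 13.4 and 13.2 TPM with vehicle and at 11.9, 11.9 and 12.5 TPM with PDBAG1. The groups did not overlap, but the log2 fold change of -0.17 (95% interval -0.32 to -0.01) had a limma adjusted p of 0.0818. It was called lower by limma under median-of-ratios scaling (adjusted p = 0.0121), quantile normalisation (0.00426) and removal of length and GC trends (0.000373). RRN3, the initiation factor that joins the polymerase to its promoter, gave a log2 change of -0.16 (limma adjusted p = 0.0783), and was called under the same alternatives and without PDBAG1 replicate 3 (log2 fold change -0.20, limma adjusted p = 0.0325). RRN3 has near-identical pseudogene copies, so reads may be split between them. TAF1D, a subunit of the promoter selectivity complex, overlapped between the groups (72.2 to 79.1 TPM with vehicle and 65.7 to 75.2 TPM with PDBAG1), with a log2 change of -0.08 (limma adjusted p = 0.319).

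NCL and NPM1 encode nucleolin and nucleophosmin, abundant nucleolar proteins that act as chaperones of rRNA and of assembling particles. NCL (chr2:231453531-231483641, minus strand, GRCh38, GENCODE v44) was at 406, 394 and 388 TPM with vehicle and at 308, 308 and 337 TPM with PDBAG1. The ranges of the groups were separate, and NCL changed by -0.32 on the log2 scale (SE 0.04, limma adjusted p = 6.57e-05). NPM1 (chr5:171387116-171411810, plus strand), the most abundant member, held 3252, 3248 and 3242 TPM with vehicle and 2724, 2774 and 2909 TPM with PDBAG1. The vehicle libraries differed by far less than the PDBAG1 libraries, and the log2 fold change was -0.21 (SE 0.03, limma adjusted p = 0.000193). With length and GC trends removed it was -0.13 (limma adjusted p = 0.00195). NPM1 has many processed pseudogenes of near-identical sequence, so its level is uncertain to the extent that reads were assigned to them.

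The box C/D snoRNPs place methyl groups on rRNA, and all 3 members for their core proteins were called lower, with a median of -0.28. FBL (chr19:39834458-39846379, minus strand), the methyltransferase fibrillarin, was at 580, 601 and 588 TPM with vehicle and at 533, 533 and 532 TPM with PDBAG1. Its PDBAG1 libraries were nearly alike, and the change of -0.15 (SE 0.03, limma adjusted p = 0.00332) was the smallest of the core proteins. NOP56 (chr20:2652593-2658393, plus strand), a scaffold protein, stood at 312, 292 and 316 TPM with vehicle and at 216, 224 and 222 TPM with PDBAG1. That was 71.9% of the vehicle mean, a log2 fold change of -0.47 (SE 0.04, limma adjusted p = 1.22e-06). For NOP58, the other scaffold, 98.5, 92.6 and 97.4 TPM with vehicle faced 76.0, 78.3 and 82.4 TPM with PDBAG1, a log2 fold change of -0.28 (SE 0.05, limma adjusted p = 0.000439).

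The box H/ACA snoRNPs convert uridine in rRNA to pseudouridine, and their 4 core proteins were all called lower, with a median of -0.29. DKC1 (chrX:154762742-154777689, plus strand), the pseudouridine synthase dyskerin, was at 89.2, 84.6 and 84.0 TPM with vehicle and at 58.2, 57.6 and 61.8 TPM with PDBAG1. It changed most within the complex, by -0.53 (SE 0.05, limma adjusted p = 2.20e-06). GAR1 measured 55.8, 50.4 and 53.7 TPM with vehicle and 41.5, 41.4 and 41.8 TPM with PDBAG1. Its log2 fold change was -0.35 (limma adjusted p = 0.000172). NHP2 was at 312, 328 and 328 TPM against 274, 275 and 271 TPM, a log2 change of -0.24 (limma adjusted p = 0.000232). NOP10, the smallest protein of the set, had 462, 499 and 485 TPM with vehicle and 448, 421 and 418 TPM with PDBAG1. The ranges came within 14.1 TPM of each other, and the log2 fold change was -0.17 (limma adjusted p = 0.00545). Once trends with length and GC content were removed, NOP10 was no longer called (-0.06, limma adjusted p = 0.0933). By level the 2 more abundant transcripts, NOP10 and NHP2, showed the smaller log2 changes and the 2 less abundant, DKC1 and GAR1, the larger ones, and the difference between them was not tested. NOLC1, a chaperone that associates with both snoRNP classes, stood at 172, 159 and 160 TPM with vehicle and at 120, 115 and 134 TPM with PDBAG1, a log2 fold change of -0.41 (SE 0.06, limma adjusted p = 6.97e-05).

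**Figure D2:**
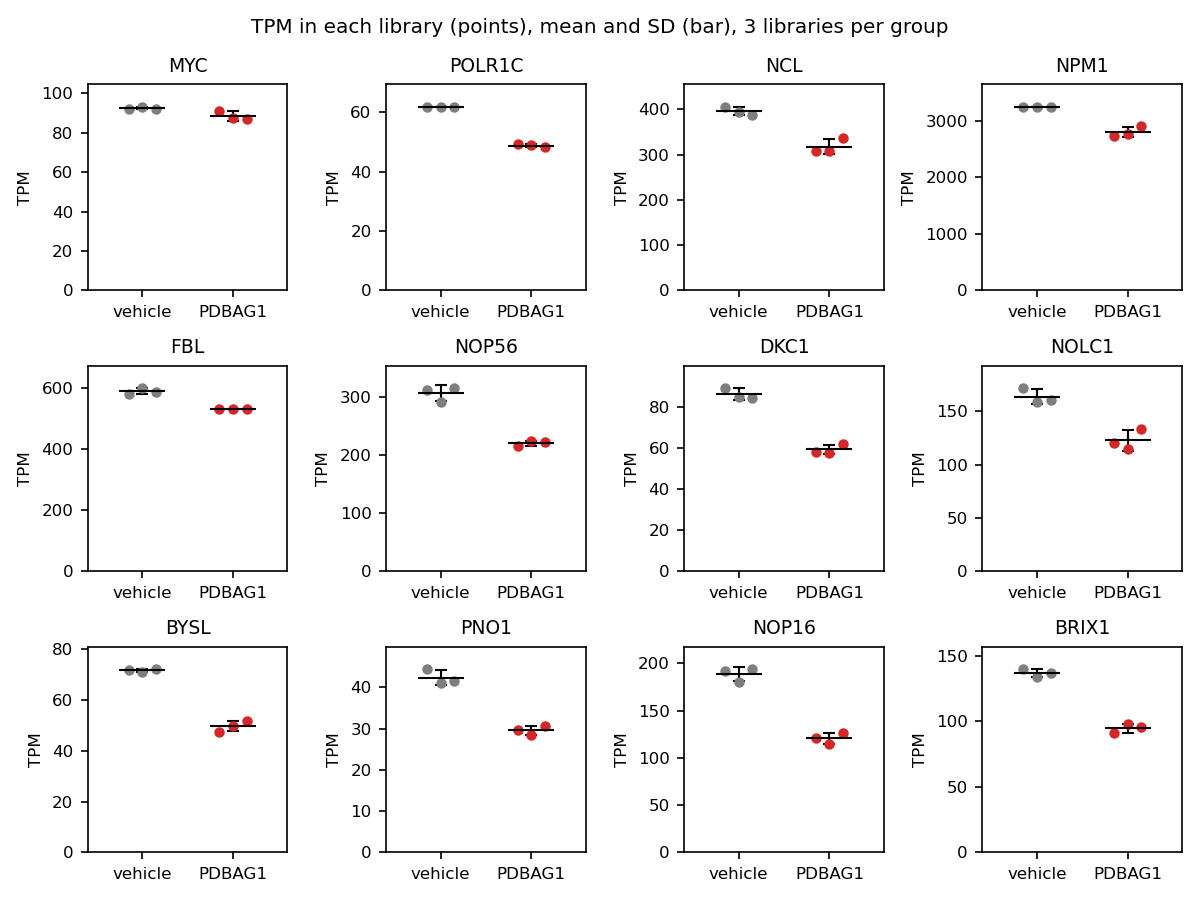
TPM (vertical axes, from 0) of 12 members in each of the 3 vehicle (grey) and 3 PDBAG1 (red) libraries, with the group mean and SD as bars. In the panels other than MYC the groups are visibly apart, as for NOP56 (292 to 316 against 216 to 224 TPM), whereas the MYC libraries lie between 86.9 and 93.4 TPM in both groups together.

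Of the 14 factors for the small subunit, 11 were called lower, with a median log2 fold change of -0.28. BYSL (bystin), needed for the maturation of the small subunit, was at 71.6, 70.8 and 72.3 TPM with vehicle and at 47.6, 49.7 and 51.6 TPM with PDBAG1. The distance between the groups was many times the spread within them, and the log2 fold change was -0.52 (SE 0.05, limma adjusted p = 2.51e-06). PNO1, an RNA-binding partner of the nuclease NOB1, had 44.6, 41.0 and 41.6 TPM with vehicle and 29.7, 28.6 and 30.7 TPM with PDBAG1. It was at 69.9% of the vehicle mean, with a log2 fold change of -0.50 (SE 0.06, limma adjusted p = 1.54e-05). WDR43, part of the early complex on the nascent precursor, measured 63.4, 58.8 and 61.2 TPM with vehicle and 42.3, 45.3 and 48.0 TPM with PDBAG1, a change of -0.43 (limma adjusted p = 5.90e-05). RRP9, a protein of the snoRNP that guides early cleavage, was at 64.4, 61.7 and 62.1 TPM with vehicle and at 53.8, 42.6 and 50.4 TPM with PDBAG1. Its PDBAG1 libraries were the most spread of the group, and the change of -0.36 had a limma adjusted p of 0.00139.

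The other small subunit factors that were called ranged from -0.36 (LTV1, a late export factor) to -0.14 (NOB1). Between them lay WDR75 (-0.34), UTP20 (-0.30) and HEATR1 (-0.27), parts of the early processome, the helicase DDX10 (-0.25), and the late factor TSR1 (-0.18). NOB1 cuts the end of the small subunit rRNA. Its call was the least stable of the members: the limma adjusted p was 0.0249 and ranged from 0.0712 to 0.109 without vehicle replicate 2, vehicle replicate 3, PDBAG1 replicate 2 or PDBAG1 replicate 3. HEATR1 was not called without vehicle replicate 1 (limma adjusted p = 0.0567 against 0.0141 with it). The other 3 small subunit factors, NAT10, NOP14 and RRP12, were not called. NAT10, which acetylates cytidine in the small subunit rRNA and is shown per library because its change was the smallest of all, was at 40.9, 40.3 and 41.5 TPM with vehicle and at 40.5, 40.1 and 40.6 TPM with PDBAG1. The groups overlapped, and the 95% interval of its log2 fold change ran from -0.12 to 0.09. NOP14 and RRP12 gave -0.08 each (limma adjusted p = 0.259 and 0.372) with overlapping groups. NOP14 was called lower under median-of-ratios scaling (-0.11, limma adjusted p = 0.0430), RRP12 under quantile normalisation (-0.14, limma adjusted p = 0.0443), and both with length and GC trends removed.

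Of the 13 large subunit factors, 11 were called lower, with a median of -0.35. NOP16 (chr5:176383946-176388927, minus strand) was at 192, 180 and 194 TPM with vehicle and at 121, 115 and 126 TPM with PDBAG1. The lowest vehicle library exceeded the highest PDBAG1 library by 54.2 TPM, and the log2 fold change of -0.64 (95% interval -0.74 to -0.54, limma adjusted p = 2.50e-07) was the largest of the 46 members. BRIX1, which acts in early particles of the large subunit, had 140, 134 and 137 TPM with vehicle and 91.3, 98.1 and 95.5 TPM with PDBAG1. It stood at 69.2% of the vehicle mean, with a log2 fold change of -0.53 (SE 0.04, limma adjusted p = 9.02e-07). RRS1, needed to bring the ribonucleoprotein with the smallest rRNA into the particle, was at 37.9, 38.4 and 39.1 TPM with vehicle and at 27.7, 25.0 and 28.6 TPM with PDBAG1, a change of -0.49 (limma adjusted p = 3.39e-05). NIP7 measured 72.2, 71.9 and 71.5 TPM with vehicle and 50.1, 52.2 and 56.8 TPM with PDBAG1, a change of -0.43 (limma adjusted p = 2.94e-05).

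The remaining calls in the large subunit group ranged from -0.37 (GNL3, the GTPase nucleostemin) to -0.23 (GNL2, a related GTPase). They included NLE1 (-0.37), the rRNA methyltransferase NOP2 (-0.35), BOP1 (-0.31), WDR12 (-0.27) and RRP1B (-0.26). PES1, BOP1 and WDR12 encode the partners of the PeBoW complex, which is required for processing of the large subunit rRNAs, and they were not alike in their values. BOP1 averaged 123 ± 2.45 TPM in the vehicle and 99.7 ± 5.49 TPM in the PDBAG1 libraries, and WDR12 15.9 ± 1.02 and 13.03 ± 0.590 TPM (SD, n = 3). PES1, shown per library after its values were seen, was at 91.8, 87.2 and 90.9 TPM with vehicle and at 87.8, 88.5 and 85.9 TPM with PDBAG1. Its groups overlapped, and its log2 fold change was -0.04 (95% interval -0.13 to 0.05, limma adjusted p = 0.495). With length and GC trends removed PES1 was called lower (-0.11, limma adjusted p = 0.0125). The difference between PES1 and its partners was not tested. PPAN was not called either (-0.09, limma adjusted p = 0.316), except with those trends removed (-0.19, limma adjusted p = 0.0122). It shares sequence with the readthrough transcript PPAN-P2RY11, noted after its values were seen, which was listed on its own at 17.6 to 19.4 TPM in the vehicle and 20.7 to 23.7 TPM in the PDBAG1 libraries, so the value of PPAN is uncertain.

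DDX21 and LYAR act at several steps. DDX21, a helicase of rRNA transcription and processing, was at 199, 179 and 185 TPM with vehicle and at 140, 144 and 160 TPM with PDBAG1. The groups did not overlap, and the log2 fold change was -0.34 (SE 0.06, limma adjusted p = 0.000302). LYAR, a nucleolar zinc finger protein, had 119, 104 and 114 TPM with vehicle and 82.4, 85.2 and 89.8 TPM with PDBAG1, a change of -0.38 (SE 0.05, limma adjusted p = 0.000101). The role groups thus had medians between -0.19 and -0.41 on the log2 scale, and differences between them were not tested.

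MYC (chr8:127735434-127742951, plus strand) was at 92.0, 93.4 and 92.35 TPM with vehicle and at 91.3, 87.6 and 86.9 TPM with PDBAG1. Every PDBAG1 library lay below every vehicle library, by a margin of 0.70 TPM at the closest, and the means were 92.6 ± 0.698 and 88.6 ± 2.38 TPM (SD, n = 3). The log2 fold change was -0.06 with a 95% interval of -0.16 to 0.03, and MYC was not called (limma adjusted p = 0.274). Over the other settings that were run its adjusted p ranged from 0.0573 to 0.470, so MYC was called in none of them. By level MYC stood above 84.6% of the genes tested.

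The MYC network list held MAX, the shared partner, together with genes of the MXD, MNT, MGA and MLX families, which encode proteins that compete for MAX or its relative MLX. Of the 10 genes tested, 5 were called higher by limma, beside 21.7% of all genes tested. None was called lower by limma (0, also 0 at an unadjusted p under 0.05), and the median was 0.19. A gene of the list was called lower under median-of-ratios scaling, under quantile normalisation and with length and GC trends removed. MXI1, a MAX partner that represses E-box genes, was at 13.8, 11.9 and 13.1 TPM with vehicle and at 21.4, 19.9 and 20.0 TPM with PDBAG1. It was the highest change of the list, 0.62 (SE 0.07, limma adjusted p = 1.95e-05). MXD1, of the same family, had 4.96, 5.22 and 4.81 TPM with vehicle and 6.70, 7.54 and 8.40 TPM with PDBAG1, a change of 0.51 (limma adjusted p = 0.000832). The groups of both genes did not overlap. Every PDBAG1 library lay above every vehicle library in 3427 of the 12582 genes tested. MXD4 (0.47), MNT (0.45) and MLXIP (0.28), named after their values were seen, were also called higher, and MLXIP lost its call without vehicle replicate 2 or 3 (limma adjusted p = 0.0516 and 0.0553) and with length and GC trends removed (0.193). The latter step left MXD4 at 0.30 and MNT at 0.27, both still called. MAX gave 0.10 (limma adjusted p = 0.127). With PDBAG1, MXI1 was at 20.4 ± 0.834 TPM, MXD4 at 20.3 TPM, MNT at 14.4 TPM and MXD1 at 7.55 ± 0.850 TPM. MXD3, of the MXD family, was at 45.8 TPM, and MYC was at 88.6 TPM. For MXD3 the direction was the opposite of that of the 5 called genes. Its libraries held 46.8 to 51.5 TPM with vehicle and 45.0 to 46.4 TPM with PDBAG1. Such a position of all PDBAG1 below all vehicle libraries was found in 20.2% of all genes tested. Its log2 fold change was -0.11, and it was not called (limma adjusted p = 0.109). Over all genes tested the median of the mean TPM was 21.4.

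**Figure D3:**
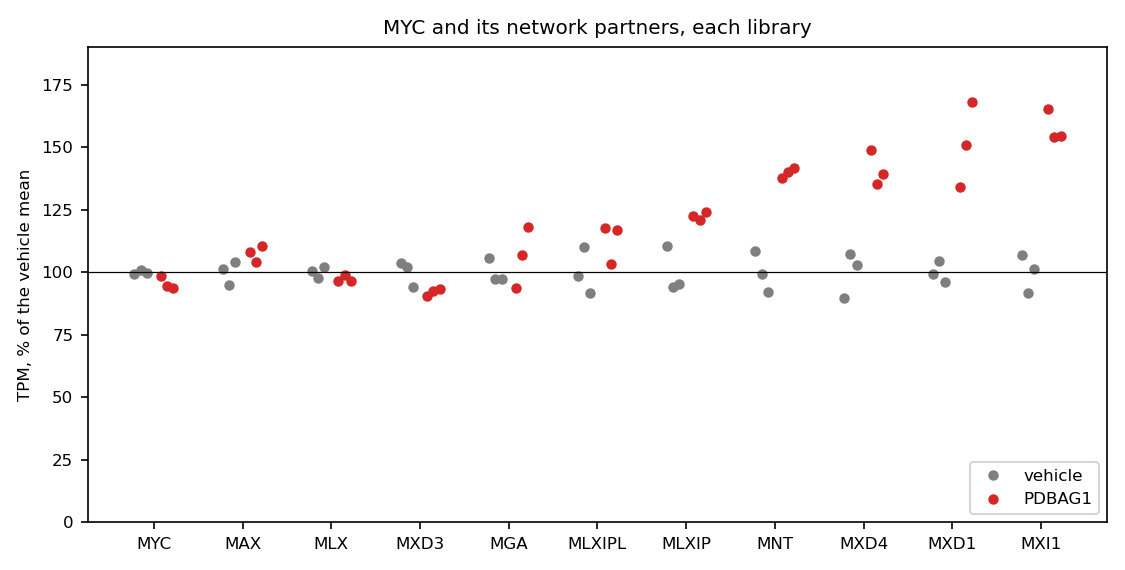
TPM of MYC and of the 10 tested network genes in each library, as a percentage of the gene's vehicle mean (line at 100%), for 3 vehicle (grey) and 3 PDBAG1 (red) libraries. The red points of MXI1, MXD1, MXD4, MNT and MLXIP lie above all grey points of the same gene, and MYC stands at 95.7% of its vehicle mean.

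Other genes of the same steps were counted from lists of known factors that are not members. Over all genes tested, 15.9% were called lower and 21.7% higher. Of 15 further RNA polymerase I genes, 5 were called lower (median -0.12), with 9 under median-of-ratios scaling, 8 under quantile normalisation, 3 without the filter on low values and 3 without vehicle replicate 2. POLR1E (-0.51) and POLR1G (-0.45) fell most. The list includes POLR2E, POLR2F, POLR2H, POLR2K and POLR2L, subunits shared by RNA polymerases I, II and III. Of these, POLR2K and POLR2L were called lower. TCOF1, read on its own below, is also in the list. Of 45 further small subunit factors, 25 were called lower and 1 higher (median -0.17). NOL6 was the lowest at -0.56, and RIOK3, a kinase placed with late small subunit maturation, was the one called higher, at 0.69 (51.8 ± 2.00 against 84.0 ± 4.34 TPM, SD, n = 3). Of 48 further large subunit factors, 23 were called lower and 3 higher (median -0.17), with URB2 (-0.58) and MRTO4 (-0.51) the lowest. The 3 called higher, picked out after their values were seen, were NOP53 (0.20, or 0.12 with length and GC trends removed), EFL1 (0.20) and ZNF622 (0.17). Calls for EFL1 and ZNF622 were lost without vehicle replicate 2 or 3 or PDBAG1 replicate 3, and for EFL1 also without PDBAG1 replicate 2 or without the filter on low values (limma adjusted p = 0.0855). Of 11 further snoRNP genes, 6 were called lower (median -0.21), with RUVBL1 at -0.29 and ZNHIT6 at -0.28. The medians of these lists lay nearer to 0 than those of the member groups for the same steps (-0.19 for polymerase I, -0.28 and -0.35 for the small and large subunits, -0.28 and -0.29 for the snoRNP classes), and the difference between members and further factors was not tested.

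**Figure D4:**
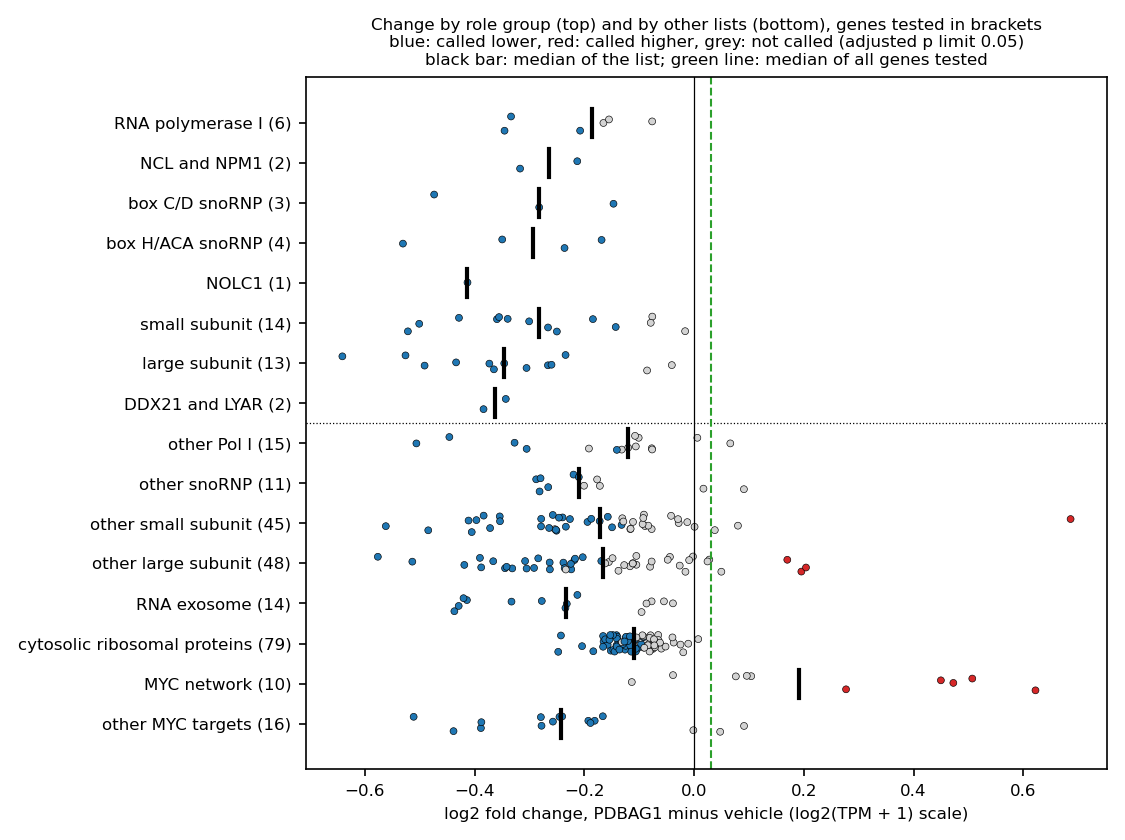
Log2 fold change (PDBAG1 minus vehicle, horizontal axis) of each tested gene in the member role groups (above the dotted line) and in lists of related genes (below it). Black bars are list medians and the green line is the median of all genes tested, 0.03; red points, called higher, occur among the small subunit (1), large subunit (3) and MYC network (5) lists and in none of the member groups.

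C1QBP, the protein that the study names as the target of PDBAG1, and the nucleolar genes TCOF1 and MYBBP1A were read beside the members. The C1QBP libraries held 523, 512 and 527 TPM with vehicle and 428, 405 and 421 TPM with PDBAG1. The groups stood apart by 84.8 TPM, and the log2 fold change of -0.32 (SE 0.04, limma adjusted p = 1.39e-05) lay near the median of the members. TCOF1, the treacle protein of rDNA transcription, gave -0.10 (limma adjusted p = 0.155), and MYBBP1A gave -0.14 (limma adjusted p = 0.0867), and both were called lower under either scaling and with length and GC trends removed (-0.27 and -0.31).

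Introns of ribosome biogenesis genes often carry small nucleolar RNAs. By GENCODE v44, 10 of the 46 members (21.7%) held at least 1 snoRNA gene, against 216 of 12582 genes tested (1.72%). TAF1D held 8, GNL3 6, NOP56 5, NOP58 4, NCL and WDR43 3 each, DKC1, TSR1 and PPAN 2 each, and POLR1C 1. Among the host members the median change was -0.33 (8 of 10 called lower), and among the other 36 it was -0.28 (29 called lower). Host genes among all genes tested had a median of -0.07 and 30.1% were called lower, against 0.03 and 15.6% for all others. The snoRNAs themselves and rRNA were not analysed here. In the same annotation 16 members overlapped another protein-coding gene on the opposite strand and 4 on the same strand, and since it is not given in the sources used here whether counting used strand, reads of such partners may be shared.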

How the data were processed

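Libraries of mRNA from 3 vehicle and 3 PDBAG1 samples were grouped by their titles. The values the authors deposited are TPM per gene, rounded to 2 decimals, and no depth can be taken from them. The submitters' processing notes name HISAT2 2.0.4, Bowtie2 2.2.5 and RSEM 1.2.12 with a GRCh38 patch release, whereas the methods describe HISAT2 and FPKM, so how the TPM were made, with which annotation and whether strand was used is not given in the sources used here. TPM are shares of each library, so a gene can shift when others change.

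Testing was limited to genes that reached 1 TPM in 3 or more libraries and used log2(TPM + 1) in R 4.3.3 with limma 3.58.1 (lmFit, eBayes with a variance trend), and p values were adjusted by Benjamini-Hochberg over the 12582 genes. A fold change on this scale understates that of low genes. With 3 libraries against 3 an exact permutation test cannot give a p under 0.1, so the model across genes was used. The steps were tested on simulated data. TPM are given as mean ± SD.

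The members and the lists of related genes were chosen with earlier results of these data known. Values per library were given for MYC, NCL, NPM1, FBL and up to 4 members per role group with the largest change, and for NAT10 and PES1, picked after their values were seen. From the other lists up to 2 called genes without overlap were named, beside C1QBP, TCOF1 and MYBBP1A. Gene positions, transcript length and GC content came from GENCODE v44 canonical transcripts on GRCh38, and promoter windows from RefSeq (matched by gene ID). Alternatives were no filter, a pseudocount of 0.1, median-of-ratios scaling, quantile normalisation, a block for the replicate number, omission of each library in turn, a 1.5-fold limit and, added after the data were seen, removal of trends with length and GC content (natural splines of 4 degrees of freedom).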

Additional observations from a re-analysis of the deposited data

How the results depend on the processing

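Between 36 and 42 of the 46 members were called lower under every alternative other than the fold limit, none (0) was called higher, and their median log2 fold change lay between -0.34 and -0.27. Leaving out 1 library gave 36 to 37. A limit of 1.5-fold left 1 member called lower, in the large subunit group (1), and 0 in the polymerase I, NCL and NPM1, box C/D, box H/ACA, NOLC1, small subunit, and DDX21 and LYAR groups. In the other lists the same limit left 1 MYC network gene and 1 further small subunit gene (RIOK3) called higher and 0 lower calls for polymerase I, small subunit, large subunit, snoRNP, exosome, MYC target and C1QBP lists, and 0 higher calls for the large subunit list. Polymerase I members called lower numbered 5 under median-of-ratios scaling, quantile normalisation and removal of length and GC trends, against 3 as reported. The further polymerase I genes called lower numbered 3 without the filter, 9 under median-of-ratios scaling, 8 under quantile normalisation and 9 with the trends removed, where 1 was called higher. Without single libraries they ranged from 3 to 6. One MYC network gene (1) and all 3 of C1QBP, TCOF1 and MYBBP1A were called lower under both scalings and with the trends removed. Further snoRNP genes called higher numbered 1 under quantile normalisation and 2 with the trends removed, further large subunit genes called lower 36 with the trends removed, and MYC targets called higher 1 with the trends removed and 0 to 1 without single libraries. Further large subunit genes called higher ranged from 1 to 3 without single libraries. Over all genes tested, 15.9% were called lower as reported, 20.8% under median-of-ratios scaling, 21.8% under quantile normalisation and 25.3% with the trends removed. The cause of these shifts was not tested. Same-numbered libraries share no stated origin, and the correlations of their deviations from the group means were -0.207, 0.0118 and -0.0785. With means of only 3 libraries, these correlations cannot settle whether the numbers pair the libraries. With the replicate block 36 members were called lower, against 37, and 1 further large subunit gene higher, against 3. Over single members and these alternatives, 532 values kept their direction and call, 13 gained a call and 7 lost one, and none was reversed (0). Depth is unknown, so differences of genes at low TPM rest on 3 libraries alone.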

Other observations

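Genes around the members moved as well. Beside the counts below, 15.9% of all genes tested were called lower and 44.1% had a negative log2 fold change. The RNA exosome trims rRNA precursors and turns over nuclear RNA, and 9 of its 14 listed genes were called lower by limma, with a median log2 fold change of -0.23 and all 14 negative. EXOSC4 was at 107, 113 and 119 TPM with vehicle and at 91.4, 79.7 and 79.0 TPM with PDBAG1, a change of -0.44 (limma adjusted p = 7.61e-05). EXOSC9 gave -0.43 (102 ± 2.29 against 75.5 ± 3.78 TPM, SD, n = 3). None was called higher (0, also 0 at an unadjusted p under 0.05).

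Of 16 further genes known as MYC targets, from nucleotide and polyamine synthesis, iron uptake and other growth functions, 13 were called lower and none higher (0, also 0 at an unadjusted p under 0.05), with a median of -0.24. CTPS1, an enzyme of CTP synthesis, was at 66.4, 63.5 and 64.4 TPM with vehicle and at 43.0, 44.8 and 47.75 TPM with PDBAG1, a change of -0.51 (limma adjusted p = 6.50e-06). PPAT, which opens purine synthesis, gave -0.44 (28.1 ± 0.853 against 20.5 ± 1.77 TPM, SD, n = 3). ODC1, PTMA and TFRC, named after their values were seen, were not called. Of 79 cytosolic ribosomal protein genes, the products that the members assemble, 46 were called lower with a median of -0.11, nearer to 0 than the -0.30 of the members, and 78 of the 79 were negative. The difference between the lists was not tested.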
